A study of Mus musculus with 30 samples.

Results

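The comparison described here set the 6 mice that carry the number 1 in their sample titles against the 24 mice numbered 2 to 5, out of 30 mice in all. Each of the 6 diet-by-time groups holds 5 mice and gave 1 mouse to the first set and 4 to the second, so diet and time were balanced between the sets and entered each fit as a group term. The members were chosen by their expression values, since at 12 weeks the mice with that number stood apart on a principal component of all genes. All values that include the 12-week mice are therefore a description, and the tests are those of the 32-week mice, which are other animals, although their earlier results were also known when the comparison was taken up. The labels say nothing of what the number stands for.

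RNA-seq of the ventral prostate was made from male C57BL/6 mice fed after weaning on diets with the same fat content that differed in the fat source, for 12 or 32 weeks. The groups were linseed oil (LO), rich in ω-3 polyunsaturated fatty acids, soybean oil (SO), rich in ω-6 polyunsaturated fatty acids, and lard (PF, pork fat), rich in saturated fatty acids, each with 5 mice per time. All mice were of the same strain and no group carried a transgene or a drug. The libraries held 27590631 to 41301707 counts assigned to genes, with 29125565 to 41301707 in the mice numbered 1 and 27590631 to 40763802 in the others.

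The ventral prostate is a gland of ducts lined by secretory luminal cells that rest on basal cells and are wrapped in smooth muscle. A messenger RNA library records which genes these cells transcribe, but the share of reads that a transcript receives also depends on its base composition, since RNA and DNA rich in G and C are copied, amplified and sequenced with another efficiency than those rich in A and T. Processed pseudogenes are copies of a messenger RNA that were written back into the genome, and in aligned reads they can be hard to separate from the parent gene they resemble. Both features are read below beside the processes that cells carry out.

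Genes of the prostate were present in every library. Pbsn, the androgen-dependent secretory protein probasin, ranged from 123 to 7530 CPM (counts relative to library size, scaled by the TMM factors of edgeR). Pbsn was also listed here among markers of the other prostate lobes, so it does not show which lobe was taken. Hoxb13, a posterior homeobox factor of the prostate, ranged from 202 to 639 CPM. Svs2, Svs4 and Svs5, the major seminal vesicle secretions, did not pass 0.153 CPM in any library. Tgm4, the transglutaminase of the other prostate lobes and the coagulating gland, lay at a median of 5.43 CPM and reached 1293 CPM in 1 mouse, LO mouse 4 at 12 weeks, which belongs to the set numbered 2 to 5. No library was a copy of another, as replicates of a group differed by at least 24.5 times the sampling noise (chi-square per degree of freedom, 60 pairs).

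At 32 weeks, 4172 of 16218 genes tested (25.7%) differed between mouse 1 and mice 2 to 5 at an adjusted p of 0.05 (edgeR's quasi-likelihood test, Benjamini-Hochberg adjustment, diet as a term). Of these, 3107 genes (19.2%) were higher in mouse 1 and 1065 (6.57%) were lower. The higher genes moved further, as 539 of them exceeded 1 on the log2 scale and 87 of the lower genes lay below −1. The p-values measure the spread between these mice, and the labels name no library, lane or dissection batch, so that the number and any such batch cannot be told apart. Leaving out each mouse in turn gave 3306 to 4351 genes.

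The 12-week mice, whose component led to the comparison, gave 2868 of 15873 genes (1827 higher and 1041 lower) in the same fit, and both times together gave 6200 of 16605 genes (3491 higher and 2709 lower). Mouse 1 had the highest CPM of its 5 in all 6 groups in 1359 genes (8.18% of 16605), and the lowest in all 6 groups in 311 genes (1.87%). These counts are part of what chose the mice, and are given only to show the extent of the pattern.

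The genes with the smallest p-values at 32 weeks and the genes that stood highest in all 6 groups included many transcripts rich in G and C. The coding stretches below, of 120 bases each, are shown because the base composition of the transcript ran with the difference over the whole set of genes. They are printed 5′ to 3′ on the strand of the gene with G and C in capitals, and come from the GENCODE M21 transcripts on GRCm38. The first 4 genes were higher in mouse 1, with the stretch of Scand1 at 78.3% GC (chr2:156312229-156312348, minus strand), that of Ccdc85b at 73.3% (chr19:5457278-5457397, minus strand), that of Rplp1 at 65.8% (chr9:61913402-61913521, minus strand) and that of Cldn3 at 65.0% (chr5:134986445-134986564, plus strand). The last 3 genes were lower in mouse 1, with Ndrg3 at 55.0% (chr2:156928762-156928881, minus strand), Nfia at 50% (chr4:97783082-97783201, plus strand) and S100pbp at 47.5% (chr4:129182411-129182530, minus strand).
Scand1: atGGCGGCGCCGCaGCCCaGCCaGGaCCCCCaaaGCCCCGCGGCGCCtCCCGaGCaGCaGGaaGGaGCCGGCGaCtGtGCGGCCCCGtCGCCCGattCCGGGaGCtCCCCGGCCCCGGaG
Ccdc85b: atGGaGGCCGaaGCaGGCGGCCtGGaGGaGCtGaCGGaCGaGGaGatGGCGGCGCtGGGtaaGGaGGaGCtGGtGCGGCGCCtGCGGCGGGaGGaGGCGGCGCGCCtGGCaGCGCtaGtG
Rplp1: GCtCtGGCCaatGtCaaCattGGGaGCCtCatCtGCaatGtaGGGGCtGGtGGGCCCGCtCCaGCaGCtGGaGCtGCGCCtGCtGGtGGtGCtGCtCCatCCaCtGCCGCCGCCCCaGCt
Cldn3: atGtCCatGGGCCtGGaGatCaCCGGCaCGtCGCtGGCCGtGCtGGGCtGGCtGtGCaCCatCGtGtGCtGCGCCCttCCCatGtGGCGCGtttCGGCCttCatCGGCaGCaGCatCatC
Ndrg3: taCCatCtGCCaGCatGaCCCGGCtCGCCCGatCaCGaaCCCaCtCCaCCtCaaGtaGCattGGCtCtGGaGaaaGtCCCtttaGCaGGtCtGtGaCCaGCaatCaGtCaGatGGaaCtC
Nfia: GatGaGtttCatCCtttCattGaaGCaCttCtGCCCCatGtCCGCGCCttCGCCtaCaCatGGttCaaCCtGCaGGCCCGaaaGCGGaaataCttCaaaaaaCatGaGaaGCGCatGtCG
S100pbp: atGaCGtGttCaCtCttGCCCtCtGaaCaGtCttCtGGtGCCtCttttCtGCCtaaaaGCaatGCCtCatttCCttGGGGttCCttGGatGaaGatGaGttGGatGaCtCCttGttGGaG

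Scand1, which encodes a protein of the SCAN domain family, had 16.5, 46.6 and 14.7 CPM in the LO, PF and SO mouse 1 at 32 weeks, against 0.210 to 0.707 CPM (median 0.456) in the 12 other mice. The sets did not overlap, and Scand1 (ENSMUSG00000046229, chr2:156311847-156312704, whole transcript 68.4% GC) had a log2 difference of 5.71 (edgeR, SE 0.228, adjusted p = 6.7e-09). At 12 weeks the 3 mice numbered 1 had 19.4, 13.9 and 30.7 CPM and the others 0.213 to 1.22 CPM, with no overlap in those animals either.

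Ccdc85b, a coiled-coil protein gene (ENSMUSG00000095098, chr19:5453180-5457894), had 13.2, 26.8 and 14.6 CPM in mouse 1 of LO, PF and SO at 32 weeks and 0.440 to 1.09 CPM in the others. The difference was 4.65 on the log2 scale (SE 0.234, adjusted p = 2.75e-08), and the sets were likewise apart at 12 weeks, with 11.7 to 20.2 CPM against 0.425 to 1.80 CPM. Cldn3, which encodes a tight junction protein of epithelia, had 157, 190 and 165 CPM in mouse 1 and 28.5 to 43.9 CPM in the others, a log2 difference of 2.34 (SE 0.109, adjusted p = 1.95e-08). All 3 mice numbered 1 thus lay above every other mouse for each of these genes.

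Lmna, which encodes the A-type lamins of the nuclear envelope, had 138, 144 and 131 CPM in mouse 1 against 35.9 to 52.0 CPM (log2 difference 1.65, SE 0.0814, adjusted p = 2.75e-08). The remaining genes of smallest p were of varied function, with Jund of the AP-1 transcription factor at 2.14, Crlf2, a receptor subunit for the cytokine TSLP, at 2.75, Bola1, a mitochondrial protein of iron-sulfur cluster assembly, at 2.64, Ssbp4, a single-stranded DNA binding protein, at 2.27, Dohh, an enzyme that modifies the translation factor eIF5A, at 1.84, and Cactin, a splicing-associated protein, at 1.46 on the log2 scale. In each of these genes mouse 1 was the highest of its 5 in all 6 groups.

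Other genes that stood highest in all 6 groups were expressed at low levels in mice 2 to 5. Pitx1, a homeobox factor, had 2.90, 2.65 and 2.99 CPM in mouse 1 at 32 weeks and 0.0899 to 0.505 CPM in the others (log2 difference 3.11, adjusted p = 5.66e-07). Hist1h4h and H1fx, which encode a core and a linker histone, differed by 3.42 and 3.20 on the log2 scale. Nrtn, the neurotrophic factor neurturin, counted 85, 202 and 57 reads in mouse 1 and 0 to 6 in the 12 others but was below the expression filter at 32 weeks, as were Ier5l, C1qtnf4, Ppp2r3d, Prr7 and 1700023F06Rik, so no test was made for these 6 genes.

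**Figure D1:**
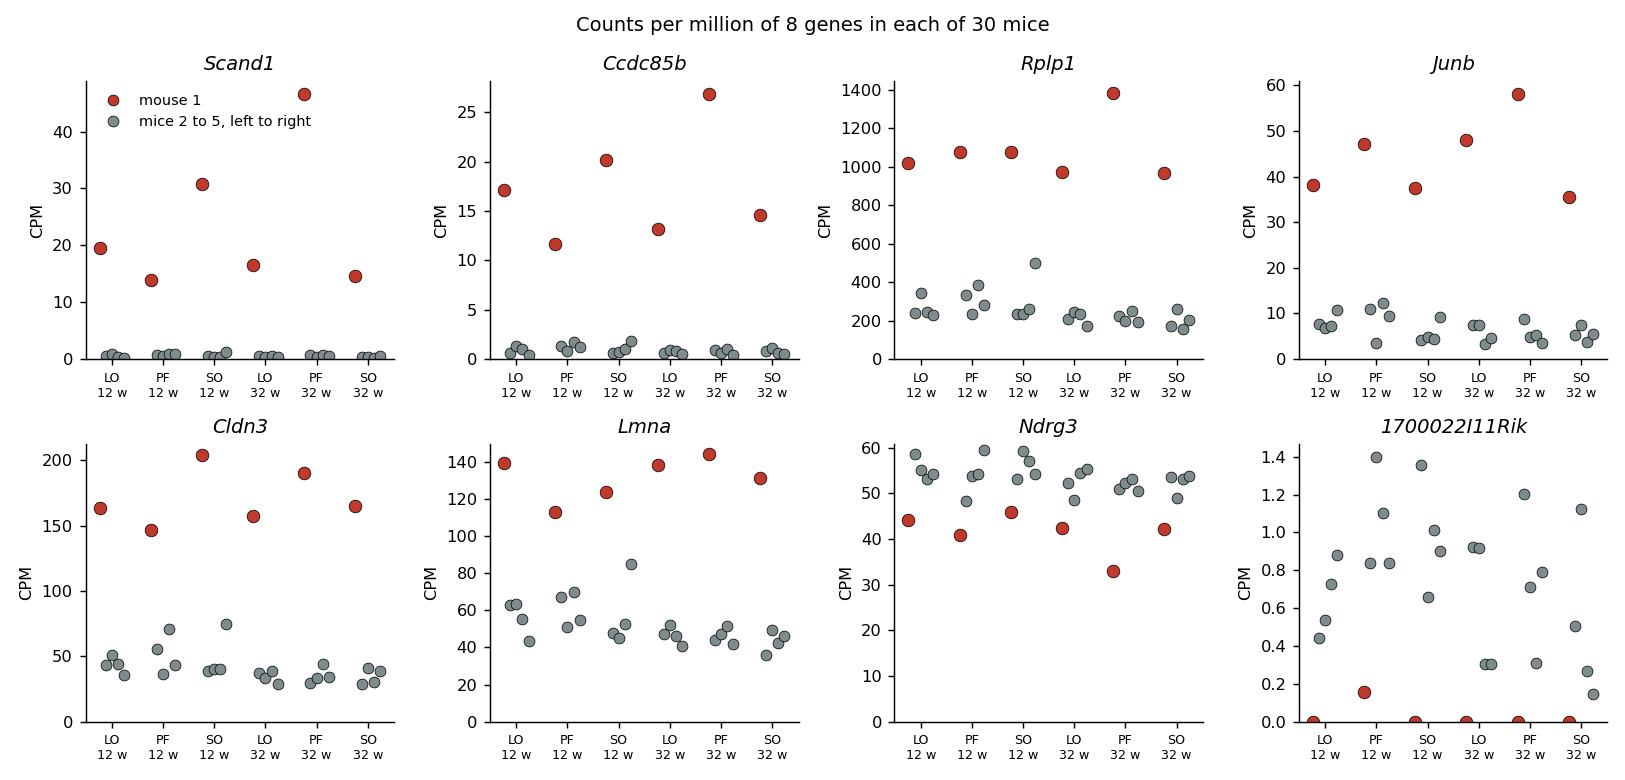
CPM (vertical axis, linear, from 0) of 8 genes in each of the 30 mice, by diet and weeks on the horizontal axis, with mouse 1 in red and mice 2 to 5 in grey from left to right. The red points lie above all grey points of their group in Scand1, Ccdc85b, Rplp1, Junb, Cldn3 and Lmna and below them in Ndrg3 and 1700022I11Rik, in all 6 groups.

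The genes lower in mouse 1 differed by less, and most of those named here did not pass once GC content was taken into account, as given below. Ndrg3, of the N-myc downstream regulated family, had 42.4, 33.0 and 42.2 CPM in mouse 1 of LO, PF and SO at 32 weeks and 48.6 to 55.4 CPM in the others (log2 difference −0.37, SE 0.0621, adjusted p = 0.00038). Nfia, a transcription factor of the nuclear factor I family, had 41.0, 41.3 and 44.2 CPM against 50.5 to 62.9 CPM (−0.39, SE 0.06, adjusted p = 0.0002), and S100pbp, which encodes a nuclear S100P-binding protein, had 37.5, 34.5 and 40.6 CPM against 44.8 to 51.5 CPM (−0.32, SE 0.051, adjusted p = 0.000258). The sets did not overlap in these 3 genes at 32 weeks, although Nfia was the lowest of its 5 in only 3 of the 6 groups and differed by −0.06 at 12 weeks. Sec61a2, a subunit of the channel that carries proteins into the endoplasmic reticulum, and Rnf141, a RING finger protein, both lay at −0.35.

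Genes with low counts showed larger differences in that direction. 1700022I11Rik (49.2% GC) counted 0 reads in all 3 mice numbered 1 at 32 weeks and 5 to 46 in the others, which, set against a floor of 3 counts over the 3 libraries, was at least 22.8-fold lower (adjusted p = 0.00138). At 12 weeks the same gene counted 0 reads in the LO and SO mouse 1 and 6 in the PF mouse 1. Clvs1, which encodes a lipid-binding protein of clathrin-coated vesicles, counted 1, 0 and 2 reads against 5 to 16 (adjusted p = 0.00281), and Nr1i3, the xenobiotic nuclear receptor CAR, counted 0, 0 and 1 against 2 to 20 but was not tested at 32 weeks. Gm12841, an antisense RNA gene, counted 1, 4 and 1 reads against 7 to 47 (adjusted p = 0.000174), and the strand setting of the counting is not given in the sources used here.

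GC content differed between the genes that were higher and those that were lower. The whole transcript had a median GC content of 57.3% in the genes higher at 32 weeks, 45.6% in the lower genes and 49.0% in the genes not called. In the 10% of genes with the lowest GC content (29.6% to 42.0%), 0.560% were higher and 11.5% lower, with a median difference of −0.17 on the log2 scale. In the 10% with the highest GC content (58.1% to 73.7%), 76.7% were higher and 0.0623% lower, with a median of 0.72. The 12-week mice ran the same way, from −0.13 in the lowest 10% to 0.53 in the highest 10%.

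Across 16054 genes with a transcript, the log2 difference at 32 weeks and GC content had a Spearman correlation of 0.632, and of 0.568 across 15710 genes at 12 weeks. The coding part alone gave 0.621 at 32 weeks across 14545 genes. The stretch before the coding part gave 0.181, the stretch after it 0.484 and transcript length −0.20. These are correlations across genes, which share the same libraries and are not independent.

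**Figure D2:**
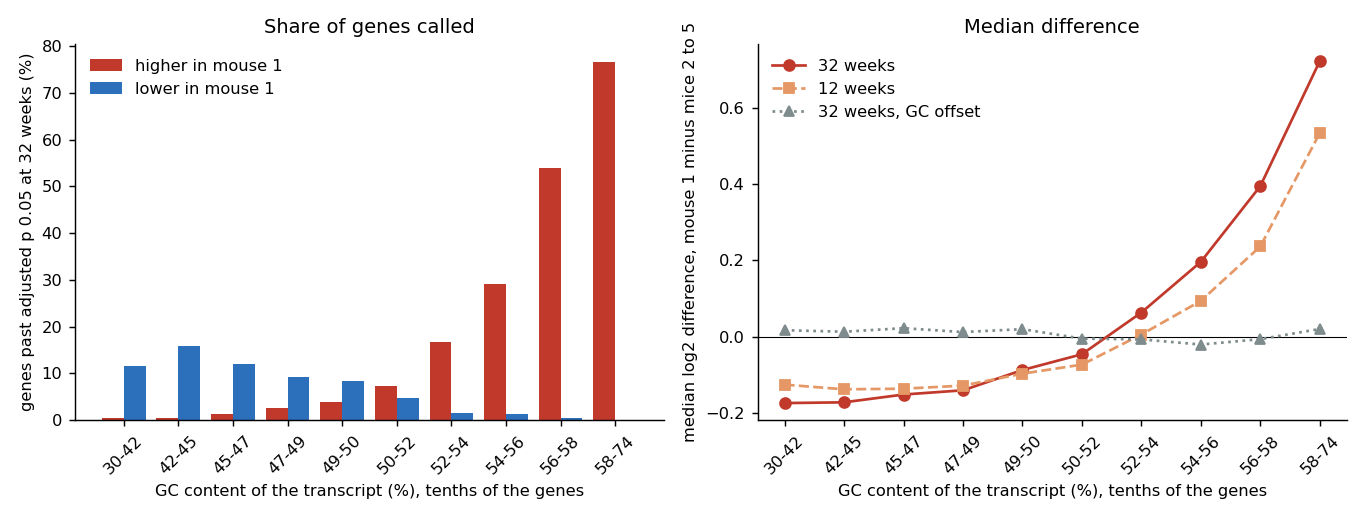
Left, share of the genes in each of 10 equal bins of transcript GC content (horizontal axis, %) that were higher (red) or lower (blue) in mouse 1 at an adjusted p of 0.05 at 32 weeks. Right, the median log2 difference of mouse 1 from mice 2 to 5 in the same bins at 32 weeks, at 12 weeks, and at 32 weeks with a GC offset. The share higher climbs from 0.560% to 76.7%, and the medians with the offset stay between −0.02 and 0.02.

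Each library was also described by the slope of its log2 expression, relative to the mean of the mice of its diet-by-time group, on GC content. The slopes of a group are thus relative to one another, and a high slope in mouse 1 lowers those of its companions. The 3 mice numbered 1 at 32 weeks had slopes of 0.359 (LO), 0.366 (PF) and 0.371 (SO) log2 units per 10 points of GC content. The 12 other mice of that time lay between −0.233 and 0.0248. The sets did not overlap. The exact permutation test within diets (two-sided) gave p = 0.008, the smallest that the arrangements can give. The adjusted p of that test was 0.0267 over 10 library measures. The slope was not among the measures planned beforehand. It restates the gene differences with GC content given above for the same mice, so this p is a description and adds no support. At 12 weeks mouse 1 had 0.291, 0.212 and 0.270 against −0.217 to 0.149, again with no overlap.

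Of the 9 other library measures at 32 weeks, the mean GC content of the counts (48.9% to 49.4% in mouse 1, 48.1% to 48.7% in the others) and the share of reads outside annotated genes (6.67% to 9.81% in mouse 1, 9.05% to 12.2% in the others) gave the same p of 0.008. The mean GC content of the counts was also not planned beforehand and follows the same gene differences, so its p is a description as well. The total counts, the share of the 10 largest genes, the mitochondrial share, the number of genes detected, the ambiguous and multiply aligned shares and the mean transcript length gave p from 0.24 to 0.832. At 12 weeks the share outside annotated genes overlapped between the sets, at 9.48% to 10.7% in mouse 1 and 8.92% to 11.5% in the others.

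**Figure D3:**
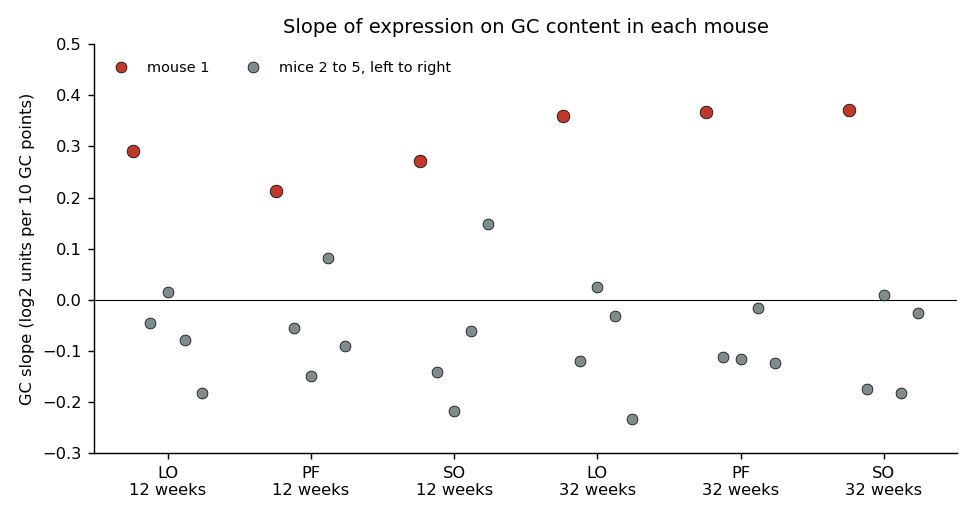
Slope of log2 expression on transcript GC content (vertical axis, log2 units per 10 GC points) for each of the 30 libraries, by diet and weeks, with mouse 1 in red and mice 2 to 5 in grey. Expression was taken relative to the mean of each mouse's group. The 6 red points lie between 0.212 and 0.371, and the highest grey point, SO mouse 5 at 12 weeks, lies at 0.149.

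The fit was repeated with each library's own trend on GC content removed, an alternative added after the pattern was seen. With this GC offset, 1166 genes passed at 32 weeks (830 higher and 336 lower). Across genes, the log2 difference then had Spearman correlations of −0.012 with GC content, −0.13 with transcript length and −0.19 with coding length. A trend with length thus remained in the fit with the offset. Of the 4172 genes called without it, 875 were called with it in the same direction and 710 had the opposite sign. The gene groups below are therefore given with both counts. Among the genes named above, the log2 difference went from 2.14 to 0.62 in Jund with the offset, from 2.75 to 1.37 in Crlf2, from 2.27 to 0.98 in Ssbp4, from 1.84 to 0.84 in Dohh, from 1.46 to 0.58 in Cactin, from 2.34 to 1.31 in Cldn3, from 3.11 to 1.78 in Pitx1, from 3.20 to 1.22 in H1fx and from 1.65 to 1.0 in Lmna, all of which still passed. It went from 5.71 to 4.05 in Scand1, and changed less in Ccdc85b (from 4.65 to 4.45) and in Bola1 (from 2.64 to 2.28). Of the lower genes, Ndrg3 (−0.25, adjusted p = 0.0835), S100pbp (−0.14, adjusted p = 0.221), Sec61a2 (−0.18, adjusted p = 0.0952) and Rnf141 (−0.16, adjusted p = 0.0882) lost their calls with the offset, and Nfia kept it at −0.20 (adjusted p = 0.0423).

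The largest counts among the processes fell on the machinery of translation and respiration, whose 3 lists also held the most genes of all process lists. Of 83 cytosolic ribosomal protein genes tested, 40 were higher in mouse 1 at 32 weeks and 1 lower, with a median difference of 0.30 on the log2 scale against −0.02 over all genes tested, and with the GC offset 31 were higher and 3 lower. Of 76 mitochondrial ribosomal protein genes, 34 were higher and 0 lower (median 0.23, and 22 and 0 with the offset). Of 86 nuclear genes of the respiratory chain, 41 were higher and 1 lower (median 0.22, and 25 and 0 with the offset). The shares called were 49.4%, 44.7% and 48.8%, beside 25.7% of all genes, of which 830 of 16218 were higher with the offset. At 12 weeks the 3 medians were 0.08, 0.02 and 0.02, against −0.04 over all genes, so the groups as a whole lay close to the other genes at that time.

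Rplp1, an acidic stalk protein of the large ribosomal subunit, had 972, 1383 and 964 CPM in mouse 1 of LO, PF and SO at 32 weeks and 157 to 259 CPM in the others (log2 difference 2.44, SE 0.133, adjusted p = 3.57e-08). Rpl36, another protein of the large subunit, had 241, 382 and 258 CPM against 22.7 to 51.3 CPM (3.03, SE 0.198, adjusted p = 1.55e-07). The sets did not overlap in either gene at either time, and with the GC offset the differences were 2.0 and 2.22. Rplp2, the partner of Rplp1 in the stalk, and Rps29 of the small subunit were higher by 1.75 and 1.37. Ribosomal protein genes have many near-identical pseudogenes, so the split of their reads is uncertain.

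Uqcrq, a small subunit of respiratory complex III, had 53.4, 92.8 and 52.6 CPM in mouse 1 against 14.9 to 19.9 CPM (log2 difference 1.94, SE 0.108, adjusted p = 3.86e-08). Its transcript has 50.2% GC, close to the 50.2% median of all genes, and the difference was 2.02 with the GC offset. Mrpl57, a protein of the large mitochondrial ribosomal subunit with 42.3% GC, had 18.2, 29.4 and 17.7 CPM against 7.65 to 9.79 CPM (1.36, and 1.55 with the offset). Their coding parts were richer in G and C, at 57.7% for Uqcrq and 60.8% for Mrpl57, beside a median coding GC content of 58.8% in the higher genes and 51.5% in the genes not called. Both stood highest in all 6 groups.

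Ndufaf8, an assembly factor of complex I with 63.2% GC, differed by 1.96, and by 0.88 with the offset, and Ndufs7, a core subunit of that complex, by 1.60 and 0.92. The mitochondrial ribosomal genes Mrpl34 and Mrps12 differed by 1.54 and 1.49, and by 1.0 and 1.13 with the offset. The 12 genes tested of the mitochondrial genome did not follow the nuclear genes, with 0 higher and 1 lower (8.33% called, beside 25.7% of all genes). That gene was mt-Nd6, the only mitochondrial protein gene on its strand, with 12.0, 21.5 and 8.79 CPM in mouse 1 and 17.5 to 60.7 CPM in the others (−1.27, adjusted p = 0.0106). The sets overlapped, and without SO mouse 1 the difference was −1.0 (adjusted p = 0.0795). Its neighbour on the other strand, mt-Nd5, differed by −0.12 (adjusted p = 0.538).

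Immediate early genes, which are transcribed within minutes of a stimulus, were higher in 9 of 30 genes tested and lower in 0, that is 30% called beside 25.7% of all genes, with a median of 0.36 at 32 weeks and 0.14 at 12 weeks. Junb of the AP-1 factor had 48.0, 58.2 and 35.6 CPM in mouse 1 at 32 weeks and 3.38 to 8.70 CPM in the others (log2 difference 3.11, SE 0.235, adjusted p = 3.96e-07, and 2.11 with the GC offset). Gadd45g, a stress-induced growth regulator, and Ier2, an early response gene, differed by 1.79 and 1.64, and by 1.08 and 0.82 with the offset. With the offset 6 genes of the group were higher and 0 lower, and its median was 0.02.

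Stress responses also gave higher genes, fewer of them with the GC offset. The shares called were 33.3% of the heat-shock genes and 34.6% of the PERK-ATF4 targets, beside 25.7% of all genes. Of 27 cytosolic heat-shock genes, 9 were higher and 0 lower (2 and 0 with the offset), among them Hspa1b, the inducible Hsp70, with 25.7, 18.5 and 20.9 CPM against 5.23 to 16.5 CPM (1.42, adjusted p = 0.000284, and 0.89 with the offset). Of 26 targets of the PERK-ATF4 arm of the unfolded protein response, 9 were higher and 0 lower, against 2 and 1 with the offset. Atf5, a transcription factor of that arm with 61.7% GC, differed by 0.73 (adjusted p = 0.000213) and by −0.18 with the offset (adjusted p = 0.41). The endoplasmic reticulum chaperones gave 5 higher and 1 lower of 30, that is 20% called beside 25.7% of all genes.

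The shares called were 46.2% in hypoxia and glycolysis, 38.2% in antioxidant defence, 28.9% in the proteasome and 14.8% in lipogenesis, beside 25.7% of all genes, so the proteasome lay near the background and lipogenesis under it. Among these groups, hypoxia and glycolysis gave 12 of 26 genes higher and 0 lower (5 and 0 with the offset), including Gapdh, the glycolytic dehydrogenase, with 459, 464 and 375 CPM against 247 to 332 CPM (0.67, adjusted p = 5.81e-05, and 0.44 with the offset). Antioxidant defence gave 10 of 34 higher and 3 lower (8 and 1 with the offset), led by Gpx1, glutathione peroxidase 1, at 1.20 (0.77 with the offset). The proteasome gave 10 of 38 higher and 1 lower (2 and 0), led by Psmb10, a catalytic subunit of the immunoproteasome, at 1.43. Lipogenesis gave 1 of 27 higher and 3 lower (1 and 1), and the higher gene was Srebf1, the transcription factor of fatty acid synthesis, with 159, 144 and 149 CPM against 52.7 to 112 CPM (1.10, adjusted p = 2.66e-05, and 0.55 with the offset). The lower genes were Acsl4, Elovl5 and Elovl7, which activate or elongate fatty acids, at −0.36, −0.32 and −0.26, and none of these 3 passed without SO mouse 1 (adjusted p = 0.124, 0.165 and 0.113).

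Luminal markers were higher in 10 of 16 genes and lower in 0, that is 62.5% called beside 25.7% of all genes. Their median was 0.53 at 32 weeks and 0.34 at 12 weeks, and with the GC offset 5 were higher. The transcripts of the list had a median GC content of 56.4%. Among all genes with 55.8% to 58.1% GC, 54.0% were higher. Krt8, a keratin of luminal cells, had 482, 576 and 483 CPM in mouse 1 and 252 to 337 CPM in the others (0.89, SE 0.0926, adjusted p = 6.24e-06, and 0.46 with the offset). Krt18, its partner in the filament, had 564, 770 and 637 CPM against 439 to 637 CPM, a difference of 0.35 (adjusted p = 0.0292) that was 0.0011 with the offset and 0.23 without PF mouse 1 (adjusted p = 0.225). Krt19, another luminal keratin, and Cldn7, a tight junction protein, differed by 1.26 and 0.94, and by 0.79 and 0.53 with the offset. In bulk tissue, more cells of a type and more RNA per cell cannot be told apart.

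Smooth muscle markers were higher in 9 of 19 genes and lower in 0 (median 0.38, and 7 and 0 with the offset). The shares called were 47.4% for smooth muscle and 58.3% for basal epithelium, beside 25.7% of all genes. Cnn1, calponin, had 217, 237 and 255 CPM in mouse 1 and 110 to 165 CPM in the others (0.80, adjusted p = 3.19e-05, and 0.83 with the offset), and Des, desmin, and Smtn, smoothelin, differed by 1.02 and 1.12, and by 0.67 and 0.42 with the offset. The summed level of the 19 genes was 4240 to 5178 CPM in mouse 1 and 2886 to 4139 CPM in the others at 32 weeks, but the sets overlapped at 12 weeks, at 4485 to 5510 and 3231 to 4747 CPM. Basal epithelium gave 6 of 12 higher and 1 lower (2 and 0 with the offset), led by Krt17 at 1.54 (0.92 with the offset). Collagen and matrix genes gave 8 of 30 higher and 0 lower (1 and 0 with the offset), among them Col1a1, the main fibrillar collagen, with 131, 93.9 and 74.9 CPM against 25.5 to 70.0 CPM. The 26.7% called in that list is near the 25.7% of all genes, and Col1a1 lost its call with the offset (0.62, adjusted p = 0.121).

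Hoxb13 had 435, 639 and 513 CPM in mouse 1 at 32 weeks and 202 to 335 CPM in the others, with no overlap (log2 difference 1.08, adjusted p = 4.58e-06). Of 14 secretions of the ventral prostate, 1 was higher and 1 lower, that is 14.3% called beside 25.7% of all genes. Spink1, a secreted protease inhibitor, had 26723, 73068 and 37004 CPM in mouse 1 and 21157 to 62692 CPM in the others.

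T cell genes, MHC class II and complement gave no call by edgeR. Of 18 T cell genes 2 had an unadjusted p under 0.05 and DESeq2 called 1, with 0.575, 0.60 and 0.973 CPM of Cd3e, a subunit of the T cell receptor complex, in mouse 1 and 0.71 to 4.41 CPM in the others (−0.95, adjusted p = 0.137). Of 12 MHC class II genes 1 had an unadjusted p under 0.05 and DESeq2 called 0, and of 24 complement genes the counts were 2 and 1. Skeletal muscle, a tissue that can adhere to the gland, gave 1 of 20 genes higher, Acta1 at 1.44 (adjusted p = 0.00356, and 0.0766 without LO mouse 1), while its median was 1.10 at 32 weeks and −0.91 at 12 weeks, and its summed level overlapped at both times (240 to 1025 CPM in mouse 1 and 79.9 to 940 CPM in the others at 32 weeks). The circadian clock gave 1 of 20 higher and 1 lower. The shares called were 5% for skeletal muscle and 10% for the clock, both under the 25.7% of all genes.

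Over all 43 lists with at least 10 genes tested, 20 held a larger share of called genes than the 25.7% of all genes tested. The lists were written with earlier results of these data known, and no list was tested against other genes.

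The difference at 32 weeks was set beside that at 12 weeks, where no mouse is shared. Across 15763 genes the log2 differences of the 2 times had a Pearson correlation of 0.71 and a Spearman correlation of 0.631. Of the 4160 genes called at 32 weeks and present in both fits, 3971 (95.5%) had the same sign at 12 weeks, beside 75.9% of all genes, and 1966 also passed at 12 weeks. The median size of those calls was 0.51 on the log2 scale at 32 weeks and 0.28 at 12 weeks. With the GC offset the correlations were 0.587 and 0.430, and 97.2% of 1163 calls had the same sign, beside 62.8% of all genes.

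The fit of the difference between the times (interaction of number 1 with time, 30 mice) uses the 12-week values that chose the mice, so its counts are a description. The edgeR fit passed 0 of 16605 genes (0%), with 997 genes at an unadjusted p under 0.05, and DESeq2 passed 2. In 1 gene, 2700016F22Rik, a noncoding RNA gene, mouse 1 was the highest of 5 in all 3 diets at 12 weeks and the lowest of 5 in all 3 diets at 32 weeks, with 0.640, 0.854 and 0.637 CPM against 0.196 to 0.613 at 12 weeks and 0.183, 0.375 and 0.195 CPM against 0.330 to 0.605 at 32 weeks.

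**Figure D4:**
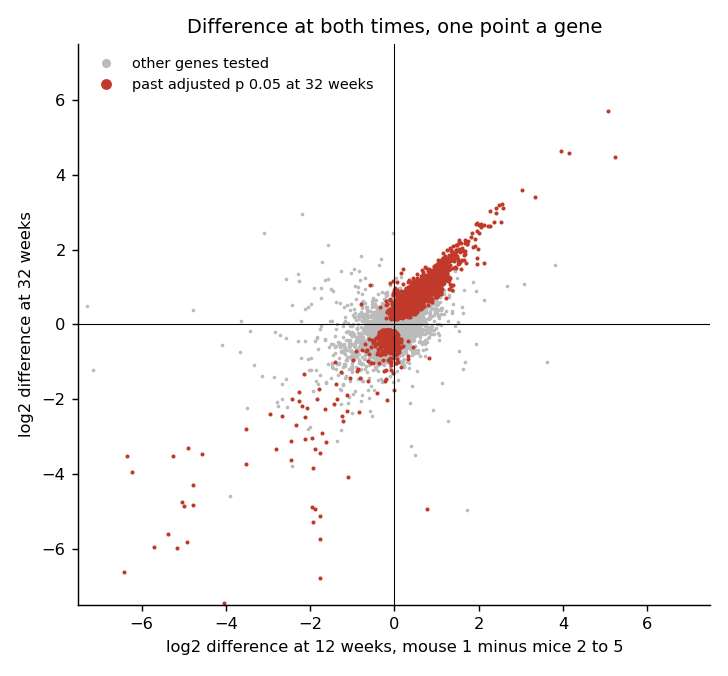
Log2 difference of mouse 1 from mice 2 to 5 at 12 weeks (horizontal axis) and at 32 weeks (vertical axis), 1 point a gene, with the genes past an adjusted p of 0.05 at 32 weeks in red. Most red points lie in the upper right and lower left (95.5% have equal sign), and 1 of the genes lies outside the axes.

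Processed pseudogenes made up the largest class among the genes that were much lower. Of 304 tested at 32 weeks, 41 were higher and 37 lower, together about the same share as the 25.7% called of all genes. Of the 87 genes below −1 on the log2 scale, 31 were processed pseudogenes, beside 25 protein-coding genes, 9 antisense RNAs and 9 lincRNAs. Another 25 processed pseudogenes lay above 1, the 24 of them in the 12-week fit all had a positive sign there, and 20 of their 25 parents were higher. All 31 of the low ones had a parent gene by shared sequence words, and of the parents 12 were higher and 0 lower, with a median difference of 0.12. At 12 weeks 30 of the 31 were in the fit, and all 30 differed with a negative sign. The pairs of the first 90 coding bases below show how close a copy can be to its parent, with capitals at the bases that differ. Tpt1-ps5 (chr9:37696515-37696604, plus strand) differs from Tpt1, which encodes the translationally controlled tumour protein, at 6 bases, and the parent's window crosses 1 exon junction. Gm12844 (chr4:117729210-117729299, minus strand) differs from Rhoa, a small GTPase of the cytoskeleton, at 1 base.
Tpt1-ps5: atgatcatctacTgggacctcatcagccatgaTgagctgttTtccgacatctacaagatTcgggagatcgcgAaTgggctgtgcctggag
Tpt1: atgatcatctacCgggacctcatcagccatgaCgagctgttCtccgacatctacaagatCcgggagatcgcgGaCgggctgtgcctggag
Gm12844: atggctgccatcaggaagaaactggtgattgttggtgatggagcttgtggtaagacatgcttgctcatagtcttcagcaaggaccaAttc
Rhoa: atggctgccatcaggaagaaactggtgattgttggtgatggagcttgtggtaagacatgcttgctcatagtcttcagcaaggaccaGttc

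Tpt1-ps5 had 0, 0.0250 and 0 CPM in mouse 1 of LO, PF and SO at 32 weeks and 0.0262 to 1.71 CPM in the others (adjusted p = 0.00441), while Tpt1 had 1210, 1666 and 1067 CPM against 1040 to 1376 CPM (0.12, adjusted p = 0.384). Gm12844 had 0.0523, 0.0750 and 0.0649 CPM against 0.0262 to 1.75 CPM (adjusted p = 0.00698), and Rhoa differed by −0.09 (adjusted p = 0.304). The sets overlapped in Gm12844, since some of the other mice were as low as mouse 1. Both pairs were chosen after their values were seen.

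The overlap was followed through the mean over all 31 pseudogenes. The mean relative count of the 31 pseudogenes, set to 1 over the 30 mice, was 0.173 to 0.247 in the 6 mice numbered 1. The 31 were chosen for being lower in mouse 1 at 32 weeks, so the low level of mouse 1 at that time follows from the choice. It was 0.254 to 0.309 in 5 other mice, namely mouse 2 of LO and of PF at 12 weeks, mouse 5 of SO at 12 weeks, and mouse 2 of LO and of PF at 32 weeks. The remaining 19 mice lay at 1.16 to 1.69, so the levels fell in 2 separate ranges and the low range was not particular to number 1. The GC slopes of those 5 mice were −0.12 to 0.149, below all 6 mice numbered 1. With the 2 such mice of 32 weeks left out, an alternative added after the data were seen, 3637 genes passed, and 3546 of the 4172 called before were called again.

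**Figure D5:**
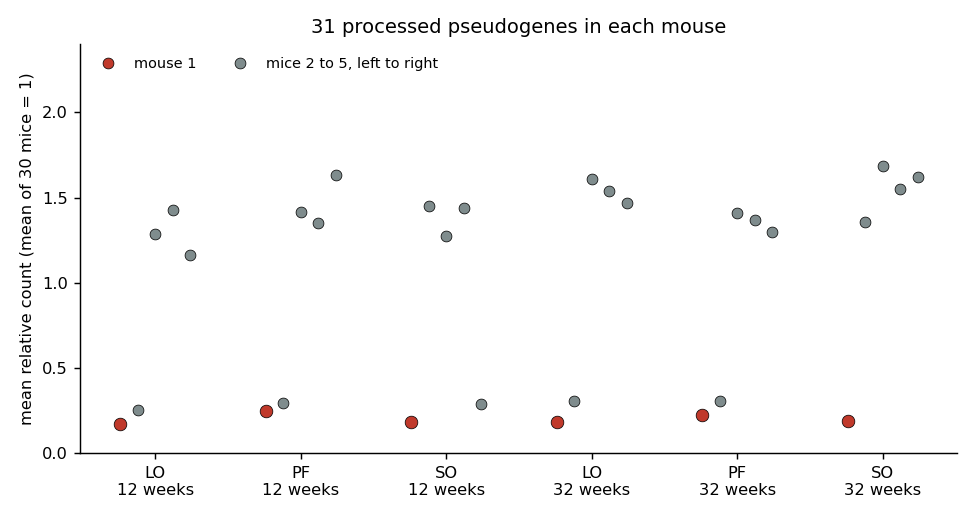
Mean relative count of 31 processed pseudogenes (vertical axis, mean of the 30 mice = 1) in each mouse by diet and weeks, with mouse 1 in red and mice 2 to 5 in grey. The 6 red points and 5 grey points lie under 0.309 and the other 19 grey points above 1.16. The 31 were chosen as lower in mouse 1 at 32 weeks, so the low red points of that time follow from the choice.

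The principal components of all genes at 32 weeks were tested for number 1 by exact permutation within diets (two-sided). The first component accounted for 23.3% of the variance, with scores of 4.67, 45.8 and 56.4 in mouse 1 of LO, PF and SO, and the second for 17.8%, with scores of 60.5, 30.1 and 12.2. Mouse 1 lay above the mean of its diet's other mice on both (exact p = 0.016 for each, adjusted p = 0.024 over 3 components), with the PF and SO mouse 1 the highest of the 15 mice on the first and the LO and PF mouse 1 the highest on the second. The third component held 11.9% (exact p = 0.912). The first component did not pass with the GC offset (exact p = 0.304). It also did not pass without SO mouse 1 (adjusted exact p = 0.76), PF mouse 1 (0.48), LO mouse 1 (0.12), LO mouse 3 (0.06) or SO mouse 5 (0.06). The second did not pass without mouse 1 of LO, PF or SO (adjusted exact p = 0.12 for each), LO mouse 3 (0.105), LO mouse 4 (0.09) or SO mouse 5 (0.075). Leaving out a mouse 1 takes its diet out of the rearrangement, so the smallest exact p is then 0.04. The second component was at that value without PF or SO mouse 1, and the first without LO mouse 1. In those fits the adjusted exact p of 0.12 cannot tell whether the component depends on the mouse left out.

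Mice numbered 1 also deviated together from their group means. Their 15 pairs had a mean correlation of 0.426 across genes (0.280 to 0.554), and the 9 pairs of 1 mouse of each time had 0.433. The pairs of mice numbered 2, 3, 4 and 5 had means of 0.0671, 0.0924, 0.00184 and 0.0240, and pairs with different numbers −0.029. The 4 other numbers thus did not show the shared deviation seen in number 1.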

How the data were processed

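The deposited files, 1 per mouse, hold the counts of reads per Ensembl gene that the authors made from the aligned libraries of total RNA (TruSeq Stranded mRNA). The submitters' processing notes name TopHat and TopHat2, HTSeq, DESeq2 and the build GRCm38.p6, with no versions and no annotation release. Rows that name no gene were left out of library sizes and tests, and reads outside annotated genes came to 6.67% to 12.2%, ambiguous reads to 0.831% to 1.18% and reads aligned more than once to 16.0% to 20.3%. Symbols, coordinates, sequences and GC content came from GENCODE M21 on GRCm38, in which 37693 of 39179 gene IDs had a symbol.

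Mice were set to groups and numbers by the sample labels. Number 1 was compared with numbers 2 to 5 by edgeR 4.0.16 (quasi-likelihood test, TMM, filterByExpr, group terms, Benjamini-Hochberg adjustment, threshold 0.05, R 4.3.3), and an adjusted p without a named tool is edgeR's. The numbers were checked for pairing through the correlation of deviations from group means across genes, and numbers 2 to 5 did not pair the mice (mean 0.0463 over 60 pairs). Single values were tested by exact permutation. Alternatives were the Wald test of DESeq2 1.42.0, RLE factors, other filters, a robust fit, all mice in 1 fit, the replicate block and each mouse left out. A GC offset (a spline with 6 degrees of freedom on transcript GC in each library), a length offset and leaving out mice low in processed pseudogenes were added after the data were seen.

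Named genes were the 12 protein-coding genes in each direction of largest difference over both times among those in which mouse 1 was highest, or lowest, in all 6 groups, the 10 called genes in each direction of smallest p at 32 weeks, up to 6 genes in each direction with opposite order at the 2 times, and up to 4 called members of largest difference per list, or without a call its first members. Tpt1, Tpt1-ps5, Gm12844, Rhoa, mt-Nd5, Krt18 and Spink1 were chosen after their values were seen. Some genes are not reported here. The members and lists were chosen with earlier results of these data known, at both times. The script was tested on simulated data of 16218 genes in the 32-week design with 200 changed, where edgeR recovered 24% of 100 genes changed by 0.5 and 64% of 100 changed by 1 on the log2 scale, with 7 calls among 16018 unchanged genes. With a GC composition effect simulated in the mice numbered 1, the same fit made 628 calls among 16018 unchanged genes and the fit with the GC offset 2.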

Additional observations from a re-analysis of the deposited data

Results flagged for a closer look

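Ranges within the 6 mice numbered 1 and within the 4 other mice of each group were examined for a single value far from the rest, in 112 groups of values. Chance flags about 1 in 20 such groups, and 9 were flagged here. Among library measures, the share of reads outside annotated genes was 6.67% in PF mouse 1 at 32 weeks and 9.48% or more in the other 5 mice numbered 1. Among mice 2 to 5 of PF at 32 weeks, mouse 4 had a GC slope of −0.0155 log2 units per 10 points and the next was −0.111.

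The other 7 values are distances of mouse 1 from the mean of its 4 companions, in log2(CPM + 1), for genes that were named in the report by rule. One of the 6 groups stood apart with 1.73 for H1fx, a linker histone (next 1.29), and with 2.51 for Bola1, a mitochondrial protein (next 1.99). Among genes lower in mouse 1, one group stood apart with −0.41 for Nr1i3, the receptor CAR (next −0.30), −0.38 for Clvs1, of clathrin-coated vesicles (next −0.29), −0.56 for Aarsd1, an alanyl-tRNA editing protein (next −0.26), −0.60 for Psg16, of the pregnancy-specific glycoproteins (next −0.35), and −0.63 for Ndrg3 (next −0.39). The direction was the same in all 6 groups for each of the 7 genes.

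The noncoding gene 2700016F22Rik was flagged because mouse 1 was higher than all its companions in the 3 diets at 12 weeks and lower than all of them at 32 weeks. The difference between the times was −1.79 on the log2 scale and is given with no test, since the 12-week values chose the mice.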

How the results depend on the processing

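The count at 32 weeks (4172 genes) stayed within 1.5 times under every alternative run but the 2 with a GC offset, which gave 1166 genes (830 higher and 336 lower) and, together with the replicate block, 887 (656 and 231). With a GC offset the other counts were 645 at 12 weeks and 2205 over both times. Leaving out each mouse gave 3306 to 4351 genes at 32 weeks, 1168 to 3346 at 12 weeks (1168 without LO mouse 1, 1568 without PF mouse 1 and 1735 without SO mouse 1) and 5484 to 6724 over both times. The replicate block gave 3655 genes at 32 weeks (2924 and 731), 2428 at 12 weeks and 6036 over both times. Its numbers 2 to 5 share only a number, as only number 1 had a high mean correlation of deviations.

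The share of calls that were higher at 32 weeks was 74.5%, and 65.2% with RLE factors (2923 and 1558 genes), 62.4% with DESeq2 (3089 and 1859), 60.8% with a length offset (2413 and 1559) and 58.7% with all mice in 1 fit (2956 and 2077). DESeq2 called 2 genes for the difference between the times. For the first component, p was 0.704 with the 500 most variable genes, 0.304 with the GC offset and 0.01 to 0.68 with each mouse left out. For the second it was 0.112 with the variance-stabilizing transformation and 0.01 to 0.08 with each mouse left out. For the third it was 0.008 with the 500 most variable genes and 0.008 with the GC offset. The correlations between the times fell to 0.587 and 0.430 with the GC offset.

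Of the 106 named genes called, 33 lost the call with the GC offset, 2 with the replicate block, 1 with DESeq2, 1 with RLE factors and 15 with at least 1 mouse left out. Atf5 changed sign with the GC offset, to −0.18. The cause of these changes was not tested. With 3 mice numbered 1 at a time, exact tests cannot give a p below 0.008, or below 0.04 with a mouse 1 left out. The labels name no batch.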

Other observations

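Other gene groups of cell growth and defence were not described above. Cell division gave 3 of 35 genes higher in mouse 1 at 32 weeks and 0 lower, and interferon-stimulated genes 4 of 41 higher and 0 lower, 8.57% and 9.76% called beside 25.7% of all genes. Core splicing factors gave 9 of 26 higher and 1 lower, and cytosolic tRNA synthetases 7 of 20 higher and 0 lower, of which 5 and 1 were higher with the GC offset. The shares called in these 2 groups were 38.5% and 35%, beside the 25.7% of all genes. Long genes of chromatin regulators, with a median transcript of 8508 bases, gave 4 of 40 higher and 3 lower, with a median difference of −0.12 at 32 weeks. Their share called was 17.5%, under that of all genes.

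Among cell types, the summed level of the mesothelium markers, the lining cells of the body cavity, did not overlap at either time. It was 426 to 666 CPM in mouse 1 and 179 to 325 CPM in the others at 32 weeks, and 410 to 513 against 178 to 398 CPM at 12 weeks. Krt19, described above as a luminal keratin, is in this list and made up nearly all of the sum. At 32 weeks Krt19 alone had 561, 662 and 422 CPM in mouse 1 of LO, PF and SO, and 176 to 321 CPM in the others. The sum therefore says little of mesothelium. Of the 5 genes tested in the list, 2 were called higher (40%, beside 25.7% of all genes), and the median difference of the 5 at 32 weeks was −0.10. Adipocyte markers overlapped at 32 weeks, at 238 to 1121 CPM in mouse 1 and 154 to 1917 CPM in the others.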
